A study of Mus musculus with 41 samples.

Results

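A group of 10 genes that restrain immune cells were followed across 41 mammary tumors that arose from Trp53-null epithelium in mice fed a low-fat or a high-fat diet. They are 10 of 30175 gene names on the arrays, chosen by name: 4632428N05Rik, Cd200, Cd200r1, Cd274, Pdcd1lg2, Pdcd1, Ctla4, Lag3, Havcr2 and Ido1, all of them present. The name 4632428N05Rik is the array's older name for Vsir, which encodes DD1α, also called VISTA. Where a gene had more than 1 probe, the probe of highest mean signal stood for it. After a filter that kept probes whose signal exceeded 10 in each channel for 80% or more of the arrays, 8 of the 10 genes were among 20913 genes tested, and Ctla4 and Ido1 were not.

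Each tumor grew from a mammary fragment of a female BALB/c Trp53-null donor of 8 weeks that was placed in the cleared inguinal fat pad of a 3-week-old wild type female host. The implanted epithelium carried the deletion in every group and the host's leukocytes, vessels and stroma did not, so whole-tumor RNA holds transcripts of both. Hosts were fed LFD (10% of kcal from fat) throughout, HFD (60% of kcal from fat) throughout, HFD from 3 to 10 weeks of age and LFD afterwards (HFD-LFD), or the reverse (LFD-HFD), and the study distributed fragments from 4 donors equally among the diet groups. Tumors were harvested at 1 cm, and those that appeared before 52 weeks are early and the others late. There were 29 epithelial tumors, 14 early and 15 late (8 LFD, 8 HFD, 7 HFD-LFD and 6 LFD-HFD), and 12 spindle cell tumors, 3 early and 9 late (3 of each regimen). The labels give the epithelial tumors as p53 variable and the spindle cell tumors as p53 spindle-like, and they do not say which tumors came from the same donor, so p-values measure the spread between tumors. In 3 pairs the tumors carry the same number in their labels and may come from 1 host; each was counted as a tumor of its own.

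Checkpoint genes encode ligand and receptor pairs, and an enzyme, that dampen T cells and macrophages so that responses to self tissue stay limited, and tumors are known to use them to escape immune attack. CD200 is a surface glycoprotein whose receptor, encoded by Cd200r1, quiets myeloid cells. PD-L1 (Cd274) and PD-L2 (Pdcd1lg2) engage PD-1 (Pdcd1) on activated T cells, CTLA-4 competes with CD28 for shared ligands, LAG-3 binds MHC class II, TIM-3 (Havcr2) sits on T cells and on myeloid cells, and IDO1 degrades tryptophan. Cd200 and the DD1α gene are known p53 targets that take part in tolerance of dying cells. The study left to later work whether a lack of their expression may underlie heightened autoimmune activity where Trp53 is missing.

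All values below are log2 ratios of tumor signal over the signal of a common reference RNA, a pool from mouse cell lines, so that 0 means equal brightness and a difference of 1 is a doubling. The methods place the reference in Cy5, whereas the sample labels place the tumor there, and the ratios here follow the labels and so run opposite to the methods as written. The Y-linked genes Ddx3y and Eif2s3y, which female tumors lack, were brighter in the Cy3 channel on 41 of 41 arrays, with log2 ratios between -8.65 and -2.59, but they were chosen after their values were seen. The median over the probes of all Y-linked genes was below 0 on 38 of the 41 arrays and ran from -2.36 to 0.26. A ratio depends on how much of that gene's RNA the reference holds, so ratios are compared between tumors and not between genes. Between 52.4% and 94.9% of spots were well above background in the tumor channel, and the median log2 ratio of an array ran from 0.041 to 0.325. The 12 spindle cell arrays had their own scan session, scanner and software version, so that the effect of tumor type cannot be told apart from that of the session. The files of 3 HFD epithelial tumors, 40R4A, 57R and 65R, match each other's columns of the deposited matrix and not their own. The mismatch can therefore change the onset given to a file but not its tumor type or regimen. Results that rest on these files are given with and without them. Trp53 itself read 0.53 ± 1.09 (SD, n = 29) in epithelial and 1.25 ± 0.62 (SD, n = 12) in spindle cell tumors, and whether its probe lies in the deleted part was not analysed here, so it checks nothing.

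The promoters of the genes that the study linked to p53 are shown first, because the tumor cells lack that factor. They run from 250 bases before to 50 after the start site on the gene's strand (RefSeq, GRCm38.p6), with Vsir at chr10:60346601-60346900 on the plus strand and Cd200 at chr16:45409004-45409303 on the minus strand. Capitals mark a match to the p53 decamer consensus, which reads the same on both strands, and no other searched motif overlapped it.
Vsir: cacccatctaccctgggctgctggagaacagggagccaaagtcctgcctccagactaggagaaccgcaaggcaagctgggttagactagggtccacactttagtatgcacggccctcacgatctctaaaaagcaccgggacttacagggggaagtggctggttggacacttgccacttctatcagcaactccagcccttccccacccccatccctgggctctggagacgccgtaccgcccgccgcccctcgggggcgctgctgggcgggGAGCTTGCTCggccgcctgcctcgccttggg
Cd200: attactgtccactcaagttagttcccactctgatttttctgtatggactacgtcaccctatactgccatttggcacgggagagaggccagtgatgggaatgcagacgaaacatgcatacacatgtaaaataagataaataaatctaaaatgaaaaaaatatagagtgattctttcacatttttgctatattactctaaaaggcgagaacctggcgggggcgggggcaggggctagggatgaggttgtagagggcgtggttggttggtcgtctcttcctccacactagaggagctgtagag
The Vsir window held the p53 decamer from base 20 to base 29 after the start, and the Cd200 window held none. Of 32851 promoters of the same length in the table, 8.36% held a match on either strand, and a match is a description of the letters only.

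The PD-1 ligand genes lie next to each other on chromosome 19 and their ratios rose and fell together across epithelial tumors, as given further on, so their start regions are shown as a pair. Cd274 lies at chr19:29367188-29367487 and Pdcd1lg2 at chr19:29410669-29410968, both on the plus strand of GRCm38.p6.
Cd274: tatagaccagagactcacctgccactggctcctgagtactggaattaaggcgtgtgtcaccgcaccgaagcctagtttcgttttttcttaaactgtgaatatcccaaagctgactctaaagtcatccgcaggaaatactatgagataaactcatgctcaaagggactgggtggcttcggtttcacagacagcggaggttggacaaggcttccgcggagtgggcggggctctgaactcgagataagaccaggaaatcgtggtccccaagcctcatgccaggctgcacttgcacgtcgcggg
Pdcd1lg2: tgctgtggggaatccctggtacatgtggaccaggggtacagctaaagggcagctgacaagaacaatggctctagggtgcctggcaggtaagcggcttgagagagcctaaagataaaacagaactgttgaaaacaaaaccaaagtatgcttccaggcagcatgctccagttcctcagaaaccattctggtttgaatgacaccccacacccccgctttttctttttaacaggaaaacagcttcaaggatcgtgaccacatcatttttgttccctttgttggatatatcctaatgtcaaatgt
Neither window held the interferon-gamma activated motif TTCNNNGAA or the interferon-stimulated motif (GAAA, any 2 bases, GAAA) on either strand, nor the p53 decamer. Those letters were present in 8.3% and 3.44% of all promoters in the table. Promoters were found there for 7 of the 10 genes, and those of Pdcd1, Ctla4 and Havcr2 held none of the motifs either. Cd200r1, Lag3 and Ido1 have no entry there.

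The array probes carry coordinates of the older mm9 build, which are not comparable with those above. The 4632428N05Rik probe lies at chr10:59834799-59834858, the Cd200 probe at chr16:45382387-45382446 and the Cd200r1 probe at chr16:44794670-44794729. The Cd274 probe lies at chr19:29462363-29462422, the Pdcd1lg2 probe at chr19:29545470-29545529, the Pdcd1 probe at chr1:95935064-95935123 and the Ctla4 probe at chr1:60971801-60971860. The Havcr2 probe lies at chr11:46294675-46294734, the Ido1 probe at chr8:25694613-25694672 and the Lag3 probe at chr6:124854570-124854866, a stretch longer than the others. Exon and UTR positions in mm9 were not analysed here.

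Of the ligands and dual-role molecules, DD1α and CD200 transcripts were measured in every tumor. None of the 41 tumors grew from epithelium with intact Trp53, and wild type host cells add their own transcripts. Whether the tumor cells lost expression of these genes was therefore not tested. The 4632428N05Rik probe stood well above background for the tumor RNA of 29 of 29 epithelial and 12 of 12 spindle cell tumors. Its log2 ratio in epithelial tumors ran from 0.06 over a median of 1.08 to 2.12, and in spindle cell tumors from 1.01 over 1.95 to 2.52. Cd200 was well above background on all 41 arrays too, and it varied far more, from -1.44 over 1.01 to 2.53 in 28 epithelial tumors and from -1.06 over 0.84 to 2.25 in the 12 spindle cell tumors. The Cd200 value of tumor 60L was left missing as an outlier spot. Cd274 ran from 0.57 over 2.04 to 3.81 in epithelial tumors, and spindle cell tumors held 1.61 to 2.87 around a median of 2.32, above the reference in every tumor. Pdcd1lg2 was dimmer, well above background on 20 of 29 epithelial and 11 of 12 spindle cell arrays, with ratios from -1.13 over 1.39 to 4.98 and from -0.25 over 1.91 to 3.39. The 3 highest Pdcd1lg2 ratios in epithelial tumors, 4.98, 3.94 and 3.18, belonged to early tumors 17R and 11R (LFD) and 40R4A (HFD).

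Among the receptors, Havcr2 ran from 1.32 over 3.90 to 5.41 in epithelial tumors, and spindle cell tumors held 2.65 to 4.82 around the same median. Pdcd1 ran from 0.88 over 2.79 to 4.15 in 28 epithelial tumors and from 0.59 over 2.29 to 3.49 in spindle cell tumors. Lag3 lay between -0.01 and 2.88 (median 1.56, n = 28) in epithelial and between 0.38 and 2.97 (median 1.82) in spindle cell tumors. Cd200r1 lay between -0.62 and 2.34 (median 0.83) and between -0.43 and 3.57 (median 1.38). The ranges of the tumor types overlapped for each of the 10 genes. Each of these 4 receptors stood well above background for the tumor RNA of 27 or more of 29 epithelial and 11 or more of 12 spindle cell tumors.

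The genes that the filter removed were dim. Ctla4 was well above background on 18 of 29 epithelial and 4 of 12 spindle cell arrays, with median log2 ratios of 0.48 and -0.26. Its highest values were 2.99 in the spindle cell tumor M86R and 2.76 and 2.60 in the epithelial tumors 57R and 17R. Ido1 was well above background on 3 of 29 epithelial and 0 of 12 spindle cell arrays, so for most tumors its ratio compares background with background. Only 57R (HFD, late) at 3.71 and 90R (LFD-HFD, late) at 3.84 stood clear, and a late HFD-LFD tumor, the other one above background, read 0.41. The label of 57R is one of those in dispute. Without the filter neither gene differed between tumor types, with log2 differences of -0.47 ± 0.36 (SE) for Ctla4 and 0.55 ± 0.30 for Ido1 (limma adjusted p = 0.354 and 0.166).

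**Figure D1:**
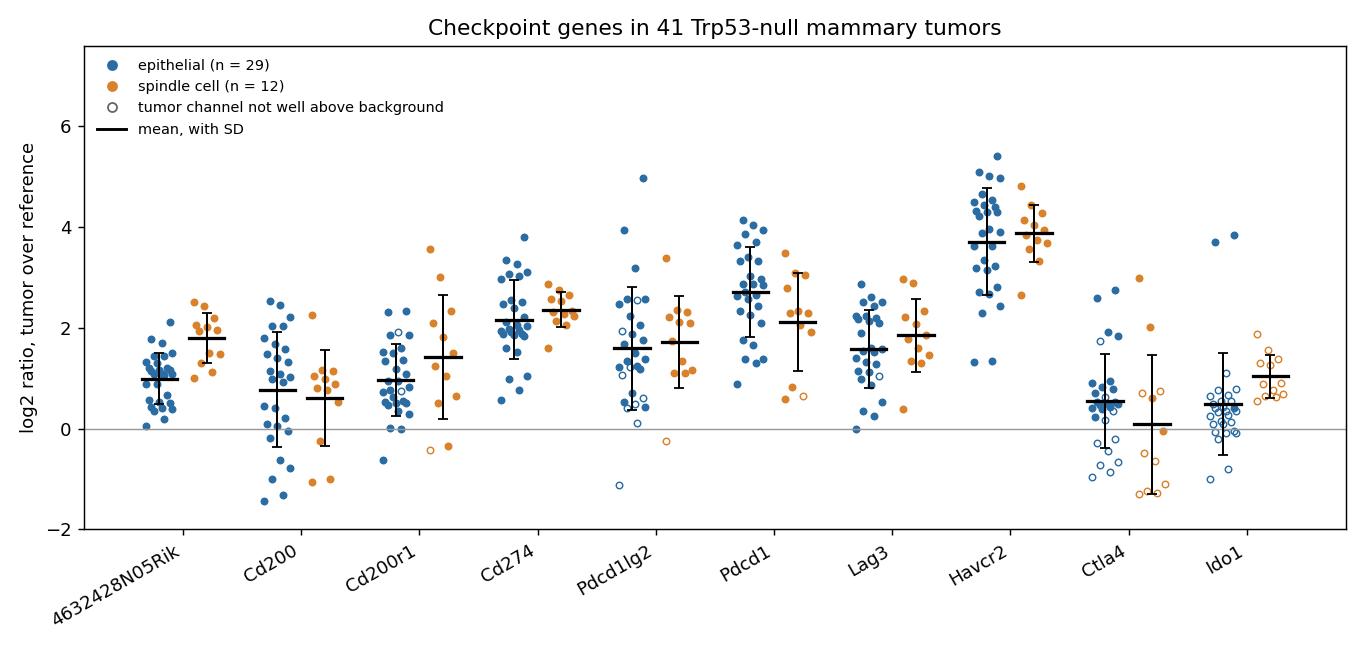
Log2 ratio of tumor over reference (y axis) for the 10 genes (x axis) in 29 epithelial and 12 spindle cell tumors, 1 point per tumor, with open points where the tumor channel was not well above background and bars for the mean and SD. The 4632428N05Rik points of spindle cell tumors lie mostly above those of epithelial tumors (means 1.8 and 0.99), the other genes overlap widely, and 2 Ido1 points stand above 3.

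The first question was whether spindle cell tumors differ from epithelial tumors. The DD1α gene was the only 1 of the 8 genes to pass the test. 4632428N05Rik was higher in spindle cell tumors, with a mean of 1.8 ± 0.50 (SD) in 12 tumors where 29 epithelial tumors had 0.99 ± 0.51 (SD), and the log2 difference was 0.81 ± 0.17 (SE, limma adjusted p = 0.000917). Of 12 spindle cell tumors 11 lay above the epithelial median, and 3 lay above every epithelial tumor, while 12 epithelial tumors lay below every spindle cell tumor. The test called 20.2% of all genes and 7.92% as higher in spindle cell tumors, so 1 of 8 genes is close to the background. The gene's other probe read 0.63 ± 0.55 and 1.47 ± 0.57, a difference of 0.84 (adjusted p = 0.00141). Over 16 alternatives the difference ran from 0.74 to 0.90, with adjusted p from 0.000169 to 0.0149, and it passed without 40R4A, 57R and 65R (0.90).

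The ratio has parts in each channel. After each array's signals were set against its own 75th percentile, the tumor channel of 4632428N05Rik was higher in spindle cell arrays by 0.37 and the reference channel, which holds the same RNA on every array, was lower by 0.43 (a difference of -0.43). In the tumor channel alone the difference no longer passed (0.37, adjusted p = 0.159). A difference between scan sessions and a difference between the tumor types cannot be told apart here. The other probe gave 0.53 in the tumor channel and -0.31 in the reference channel.

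The remaining 7 genes did not pass. Pdcd1 was lower in spindle cell tumors by the point estimate, at 2.11 ± 0.98 (n = 12) against 2.72 ± 0.90 (n = 28), with a difference of -0.60 (95% interval -1.23 to 0.02, adjusted p = 0.163). In the tumor channel alone its difference was -1.01 and passed (adjusted p = 0.0479, against at most 0.376 over the other alternatives). The reference channel of Pdcd1, with the same RNA on every array, differed in the same direction (-0.41). The tumor channel alone does not remove such a shift between sessions. The intervals of Cd274 (-0.27 to 0.67), Lag3 (-0.25 to 0.78), Havcr2 (-0.48 to 0.80), Cd200 (-0.90 to 0.57), Cd200r1 (-0.15 to 1.05) and Pdcd1lg2 (-0.63 to 0.90) held 0. The median difference of the 8 genes was 0.18, and that of all genes -0.069.

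**Figure D2:**
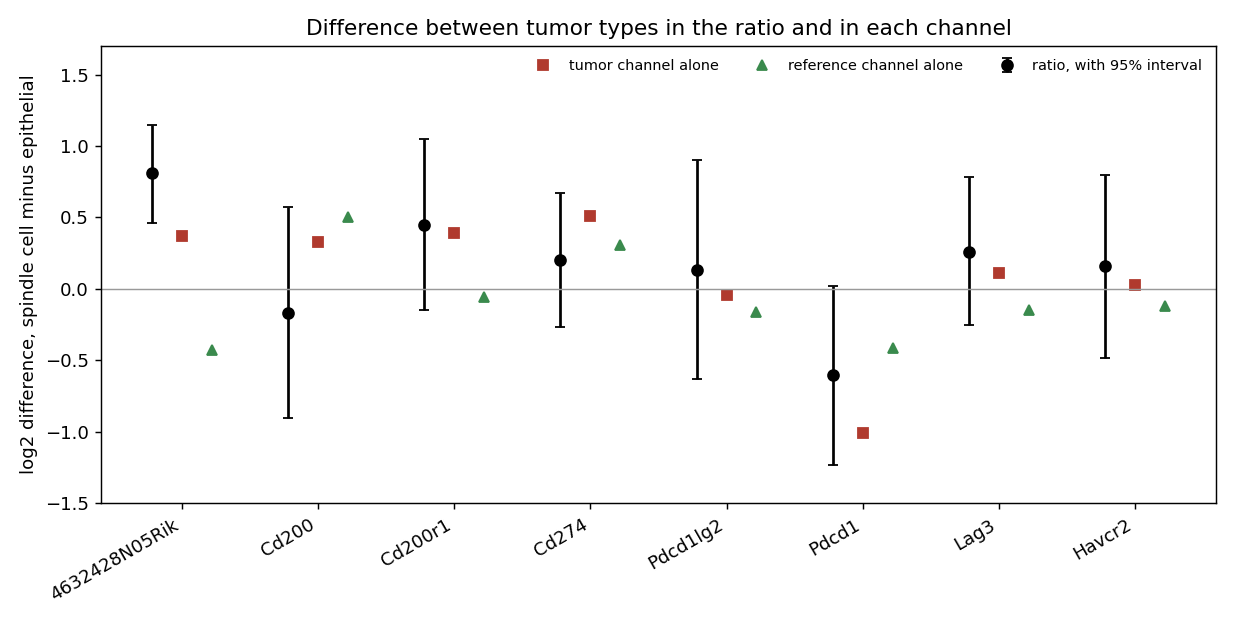
Log2 difference of spindle cell minus epithelial tumors (y axis) for 8 genes (x axis), in the ratio with its 95% interval, in the tumor channel alone and in the reference channel alone, the channels set against each array's 75th percentile. For 4632428N05Rik the ratio's 0.81 has a part of 0.37 in the tumor channel and of -0.43 in the reference channel, and for Pdcd1 the tumor channel stands at -1.01.

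Marker genes of the cells that carry these molecules were read beside them. Of 9 T cell genes, 1 fell and 0 rose in spindle cell tumors, where 12.2% of all genes fell. Cd8a fell by 1.39 (adjusted p = 0.0344), a call held in 11 of 17 alternatives and lost when slide was a random block (adjusted p = 0.0877). Of the 9 genes 6 were lower with an unadjusted limma p under 0.05, as were 20.4% of all genes, and the list's median was -0.85. Cd247 met the same limit in the other direction, higher by 0.51 in spindle cell tumors, and did not pass. It was the only 1 of the 9 genes with a higher estimate there. The mean log2 ratio of the T cell list ran from -1.14 to 2.59 in epithelial tumors, with -1.34 to 1.07 in spindle cell tumors. Of 9 macrophage genes, C1qb alone rose, by 0.87 (adjusted p = 0.00991, and 0.583 in the tumor channel alone), where 7.92% of all genes rose, 8 were higher by their estimates, and the list's mean ran from 0.27 to 2.34 and from 0.87 to 2.48. None of 3 regulatory T cell, 1 NK cell, 3 dendritic cell and 3 B cell genes tested passed (Foxp3 -0.61, Nkg7 -0.06, Itgax 0.34 and Cd79b -0.83 the largest). Ptprc, the common leukocyte gene, differed by 0.26 (adjusted p = 0.553). Fewer cells of a type and less RNA per cell cannot be told apart in whole tumors, and the part of cell makeup in the differences above was not tested.

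Markers of the labelled tumor types were met on the mesenchymal side alone. Of 8 mesenchymal genes 5 rose in spindle cell tumors, among them Vim by 1.19, Col1a1 by 1.22 and Zeb1 by 0.87, and 0 fell. Of all genes 7.92% rose and 12.2% fell. The 6 epithelial genes were lower by their estimates, but none passed (Epcam -0.77, adjusted p = 0.245). Of 5 endothelial genes 3 rose, Tie1 by 1.13 the most, where 7.92% of all genes rose. The call was held in 15 of 16 alternatives for Vim, in 15 of 17 for Col1a1, in 14 of 17 for Zeb1, which lost it when slide was a random block (adjusted p = 0.079), and in 16 of 17 for Tie1, which lost it in the tumor channel alone (adjusted p = 0.0556).

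Other members of the pathway were read by the same test. Of 6 costimulatory receptor genes tested, 2 fell in spindle cell tumors, Cd27 by 1.11 (adjusted p = 0.0201) and Tnfrsf18, which encodes GITR, by 1.01 (adjusted p = 0.00986), and all 6 had negative differences, while 12.2% of all genes fell. Of 7 enzyme genes tested, Kynu, the kynureninase of tryptophan breakdown, fell by 1.21 (adjusted p = 0.0221), and Arg1 at 0.87 and Entpd1 at 0.47 did not pass. With slide as a random block Cd27 (adjusted p = 0.0593) and Kynu (adjusted p = 0.0517) lost the call, which held in 13 and 12 of 17 alternatives, and in 16 of 17 for Tnfrsf18. Of 6 other inhibitory receptors, 10 ligands and 10 genes of the interferon-gamma axis, none passed. The largest differences among the receptors and the ligands were -0.71 for Btla and -0.46 for Pvrl2.

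The second question was whether tumors that appeared early differ from those that appeared late. In epithelial tumors all 8 genes had higher estimates in early tumors, but none passed an adjusted p of 0.10, where 0.143% of all genes did. The 8 estimates had a median of 0.62 on the log2 scale, against 0.014 over all genes, of which 52.2% were higher in early tumors. Havcr2 averaged 4.21 ± 0.84 (SD) over 14 early tumors and 3.26 ± 1.07 (SD) over 15 late ones, a difference of 0.95 ± 0.34 (SE, limma adjusted p = 0.242). Of 14 early tumors 12 lay above the late median, with values from 2.43 over 4.38 to 5.41 against 1.32 over 3.22 to 5.02. Cd200 read 1.30 ± 1.04 (n = 13) against 0.31 ± 1.04 (n = 15), a difference of 0.99 ± 0.38 (adjusted p = 0.266), with 12 of 13 early tumors above the late median. Its range was -1.44 over 1.41 to 2.53 in early and -1.32 over 0.10 to 2.21 in late tumors, so that the lowest value of all was that of an early tumor, on HFD-LFD.

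Lag3 read 1.91 ± 0.76 (n = 14) against 1.27 ± 0.66 (n = 14), a difference of 0.65 ± 0.26 (adjusted p = 0.294). These 3 genes had an unadjusted limma p under 0.05, as 7.24% of all genes had in that direction. Differences were 0.69 for Pdcd1lg2, 0.60 for Pdcd1 and 0.35 for Cd274 (adjusted p = 0.482, 0.405 and 0.603). 4632428N05Rik (0.05, 95% interval -0.34 to 0.44) and Cd200r1 (0.12, -0.41 to 0.65) had the smallest estimates. The ranges of early and late tumors overlapped for every gene.

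The estimates of some genes moved with the array slide. The early and late LFD tumors were on slides 6 and 7, and those of HFD-LFD on slides 3 and 4, so that within these regimens onset and slide cannot be told apart. Only 3 slides, with 5 early and 7 late epithelial tumors, held both. With slide as a fixed block the median of the 8 differences was 0.13, with 0.75 for Cd200 and 0.71 for Havcr2 but 0.25 for Lag3, 0.04 for Pdcd1lg2, -0.01 for Cd274 and -0.29 for 4632428N05Rik. From normexp-corrected signals it was 0.25, with 1.02 for Cd200 and 0.48 for Havcr2. With the level of Ptprc as a covariate, chosen after seeing the data, the median was 0.44, and from the tumor channel alone it was 0.21, with 5 of 8 genes higher in early tumors. In the first scan session alone it was 0.54, and with the 3 disputed files named as in the matrix it was 0.70. No member passed in any of these fits.

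**Figure D3:**
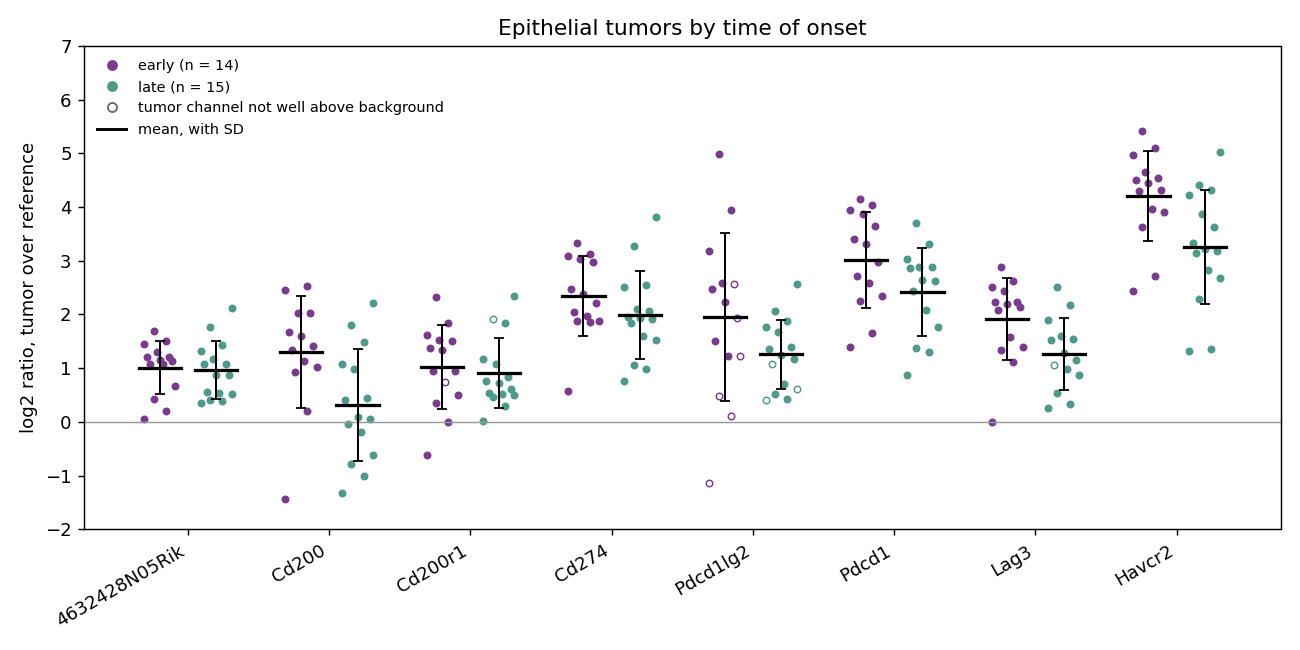
Log2 ratio of tumor over reference (y axis) for 8 genes (x axis) in 14 early and 15 late epithelial tumors, 1 point per tumor, open where the tumor channel was not well above background, with the mean and SD. Early means are the higher for each gene, by 0.99 for Cd200 and 0.95 for Havcr2, and the points of early and late tumors overlap throughout.

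Genes that act with these molecules showed the same absence of calls. Of 10 interferon-gamma axis genes tested, 0 passed and 4 had an unadjusted p under 0.05, all higher in early tumors as were 7.24% of all genes, among them Cxcl10, a T cell chemokine, with a difference of 1.29 ± 0.36 (adjusted p = 0.146), Cxcl9 with 1.06 (adjusted p = 0.16) and Irf1 with 0.59 (adjusted p = 0.261). Among ligands Lgals9, the galectin bound by TIM-3, differed by 1.08 (adjusted p = 0.167) and Cd276 by 0.95 (adjusted p = 0.188), and 0 of 10 passed. Nt5e, which makes adenosine, differed by 1.16 (adjusted p = 0.304) and Kynu by 1.07 (adjusted p = 0.14), and 0 of 7 enzymes passed. The 6 other inhibitory receptors (Btla 1.0, adjusted p = 0.43) and the 6 costimulatory receptors (Tnfrsf18 0.60, adjusted p = 0.348) gave no call. The T cell list had a median difference of -0.05 and the macrophage list of 0.10, with 0 of 9 genes passing in each, while Il2ra of the regulatory T cell list differed by 0.88 (adjusted p = 0.342). The NK, B and dendritic cell, endothelial, epithelial and mesenchymal lists gave no call either.

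Over all 41 tumors 0 of 8 genes passed, as did 0.0143% of all genes, and 5 had an unadjusted p under 0.05 with a higher value in early tumors, as had 5.72% of all genes. Havcr2 differed by 0.82 ± 0.26 (adjusted p = 0.323) and Pdcd1 by 0.78 ± 0.27 (adjusted p = 0.371). Within the 12 spindle cell tumors, where 3 were early, none of the 8 genes passed and 0% of all genes did. Cd274 read 2.76 ± 0.11 (n = 3) in early and 2.23 ± 0.29 (n = 9) in late spindle cell tumors, a difference of 0.53 ± 0.21 (limma adjusted p = 1). Of the 8 genes, Cd274 and Havcr2 (0.72) were the 2 with an unadjusted limma p under 0.05. The share of all genes under that limit was not analysed for the spindle cell tumors, so this count has no background. The early and late difference did not depend detectably on tumor type for any of the 8 genes (interaction, from -0.82 for Cd200 to 0.54 for Cd200r1, adjusted p = 1), where the test called 0.00478% of all genes.

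The third question was the diet. Across the 4 regimens of epithelial tumors 0 of 8 genes passed the limma F test, which called 0.473% of all genes. Pdcd1 was the nearest (F = 3.19, adjusted p = 0.366). It read 3.07 ± 0.70 (n = 8) on LFD, 3.15 ± 0.61 (n = 8) on HFD, 2.24 ± 1.07 (n = 6) on HFD-LFD and 2.15 ± 0.90 (n = 6) on LFD-HFD, so both switched regimens were lower than both constant ones by their means. Lag3 had the same order, with 1.81 ± 0.44, 1.99 ± 0.61, 1.27 ± 1.1 and 1.07 ± 0.65 (adjusted p = 0.408). 4632428N05Rik was highest on HFD, at 1.37 ± 0.61 against 0.88 ± 0.47, 0.87 ± 0.34 and 0.77 ± 0.37 (adjusted p = 0.444). Its 8 HFD values ran from 0.06 over 1.44 to 2.12. The 4 highest were 57R (2.12), 62L (1.77), 65R (1.7) and 40R4A (1.45), and the 3 with disputed files are HFD tumors under either labelling. Pdcd1lg2 was highest on LFD, at 2.28 ± 1.51 against 1.65 ± 1.02, 1.01 ± 1.27 and 1.28 ± 0.60 (adjusted p = 0.553).

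Cd274 stayed within means of 1.88 to 2.37 over the regimens and Havcr2 within 3.40 to 3.97, with SDs up to 1.18 and 1.78 in the HFD-LFD group. Cd200 read 0.42 ± 1.0 on LFD, 1.21 ± 1.22 on HFD (n = 7), 0.39 ± 1.42 on HFD-LFD and 1.17 ± 0.75 on LFD-HFD (adjusted p = 0.662). Cd200r1 had means between 0.71 and 1.08. Among the related lists Lair1 alone passed the test of regimens (adjusted p = 0.0661), a call held in 9 of 13 alternatives. It was lost when slide was a random block (adjusted p = 0.33), where no gene of the array was called, with 1 tumor per shared label number (adjusted p = 0.138), and when the deposited log2 matrix was used (adjusted p = 0.146). Slides hold mostly 1 regimen each, with LFD on slides 6 and 7 and HFD-LFD on slides 3 and 4, and the regimens share only slide 1, between HFD and LFD-HFD. Lair1, a collagen-binding inhibitory receptor of leukocytes, read 3.80 ± 0.65 on LFD, 4.10 ± 0.46 on HFD, 3.11 ± 0.82 on HFD-LFD and 2.44 ± 0.41 on LFD-HFD.

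**Figure D4:**
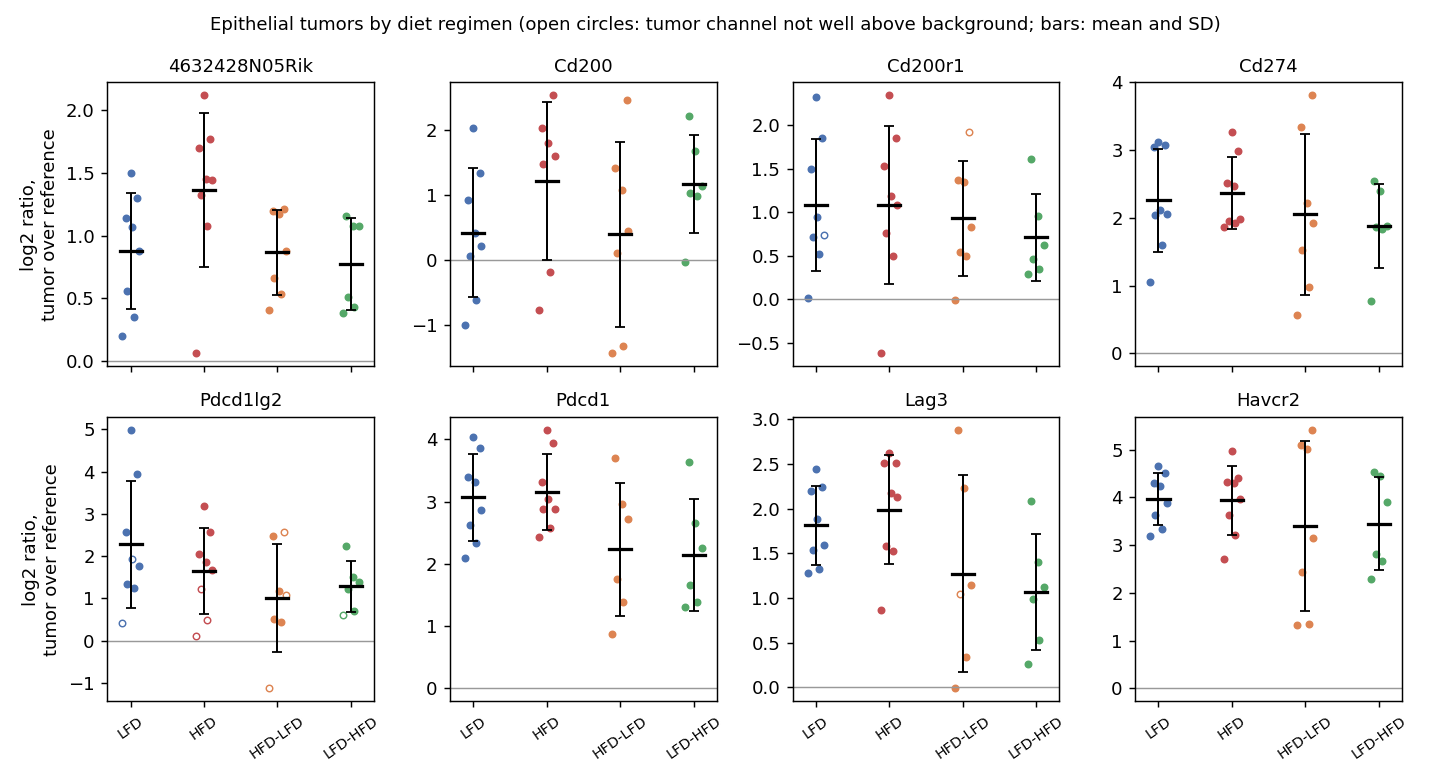
Log2 ratio of tumor over reference (y axes) by diet regimen (x axes) in 29 epithelial tumors, 1 panel per gene and 1 point per tumor, open where the tumor channel was not well above background, with the mean and SD. Pdcd1 and Lag3 have their lower means in the switched regimens HFD-LFD and LFD-HFD, and the points of the regimens overlap in each panel.

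Set against lifelong LFD, none of the 8 genes passed in any regimen. The HFD-LFD contrast called 1.25% of all genes, and all 8 estimates were below 0 with a median of -0.38, against -0.067 over all genes. Its largest was -1.26 ± 0.58 for Pdcd1lg2 (95% interval -2.45 to -0.07, adjusted p = 0.332), followed by -0.83 for Pdcd1 (adjusted p = 0.389). The HFD contrast and the LFD-HFD contrast called 0% of all genes each, with -0.92 ± 0.42 for Pdcd1 on LFD-HFD (limma adjusted p = 0.726). On LFD-HFD the median of the 8 estimates was -0.45, against -0.025 over all genes, and 1 of the 8 was above 0. A lower median was thus not particular to HFD-LFD. On HFD the median was 0.09, against -0.023, and 6 of the 8 were higher. For 4632428N05Rik on HFD the difference was 0.49 ± 0.24 (limma adjusted p = 0.517). It was 0.26 without the 3 disputed tumors, which are HFD tumors under either labelling. These 3 contrasts share the 8 LFD tumors. In each of them 1 of the 8 genes had an unadjusted limma p under 0.05, and the share of all genes under that limit was not analysed for them.

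Pubertal HFD, meaning HFD and HFD-LFD together against LFD and LFD-HFD, left 0 of 8 genes called, over all 41 tumors (0.00956% of all genes called) as in epithelial tumors (0%), and 0 of 8 had an unadjusted p under 0.05 in either fit by limma. In epithelial tumors the estimates lay between -0.50 for Pdcd1lg2 (95% interval -1.38 to 0.38) and 0.30 for 4632428N05Rik (-0.07 to 0.67). The 4 regimens of spindle cell tumors, with 3 tumors each, gave 0 calls among the 8 genes and 0% of all genes, and 0 of 8 had an unadjusted limma p under 0.05. The pubertal difference did not pass as different between tumor types for any of the 8 genes, where 0.445% of all genes were called, and estimates ran from -0.70 for Cd200 to 0.50 for Havcr2 (adjusted p = 0.749 and 0.803). Among the related lists Fap, a fibroblast protease, passed there, with -1.71 (adjusted p = 0.0441), a call held in 11 of 13 alternatives and lost with outlier spots kept (adjusted p = 0.173) and without the spindle cell tumors M32L, M76R and M86R (adjusted p = 0.137).

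Onset and regimen were also tested together in epithelial tumors, where 0.00478% of all genes and 0 of 8 members passed. Pdcd1lg2 had an unadjusted p under 0.05 (F = 3.05, limma adjusted p = 0.683), a limit for which the share of all genes was not analysed here. On LFD its 4 early tumors read 3.36 ± 1.36 and its 4 late tumors 1.19 ± 0.57, whereas on HFD early tumors read 1.25 ± 1.37 and late tumors 2.05 ± 0.38. On LFD the early values were 3.94, 4.98, 2.58 and 1.94 and the late values 1.35, 0.41, 1.24 and 1.76. Of these, 1.94 and 0.41 were not well above background, and each set lay on a slide of its own. On HFD the values were 3.18, 1.22, 0.11 and 0.48 early and 1.87, 2.57, 2.06 and 1.68 late. The early values 1.22, 0.11 and 0.48 were not well above background, so their place below the late ones rests on dim signal, and the disputed 40R4A (3.18), 65R (0.48) and 57R (2.57) are among the 8. The early HFD tumors that remain without them, 42L4B (1.22) and 60L (0.11), are the 2 arrays of a scan session of their own. The interaction had F = 3.41 without these 3 (adjusted p = 0.211) and 1.43 with the matrix labels (adjusted p = 0.837). Havcr2 on LFD-HFD read 4.54, 4.45 and 3.90 in early and 2.29, 2.82 and 2.67 in late tumors. The late ones were all on slide 2 and 2 of the early ones on slide 1. On HFD the Havcr2 means were 3.99 ± 0.94 early and 3.89 ± 0.57 late (interaction F = 1.27, limma adjusted p = 0.809). How many of all genes separate early from late tumors in groups this small was not analysed here.

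The genes were then compared with each other across tumors. Of 28 pairs among the 8 genes, 26 had a positive Pearson r in epithelial tumors, with a median of 0.42. The pair of highest r was Pdcd1 and Lag3, both receptors of activated T cells (r = 0.77, Spearman rho = 0.70, n = 28, and r = 0.69 without the 2 tumors farthest from the Pdcd1 median). Cd274 and Pdcd1lg2, the neighbouring ligand genes printed above, had r = 0.69 (rho = 0.68, n = 29, and 0.75 without the 2 farthest). Cd274 and its receptor gene Pdcd1 had r = 0.61 (rho = 0.53, n = 28). Cd200 and its receptor gene Cd200r1 had an r of -0.04 (rho = 0.00, n = 28), and Cd200 stayed at or below 0.29 with each of the 7 others. Within the first scan session alone, 27 of 28 pairs were positive with the same median. The points share array depth and the leukocyte content of the tumor, so no p is given.

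In the 12 spindle cell tumors 18 of 28 pairs were positive with a median of 0.15. Pdcd1 and Lag3 again had the highest r (0.88), whereas Cd200 and Cd200r1 had -0.64 and Cd274 and Pdcd1lg2 0.21. The difference between tumor types in these correlations was not tested.

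**Figure D5:**
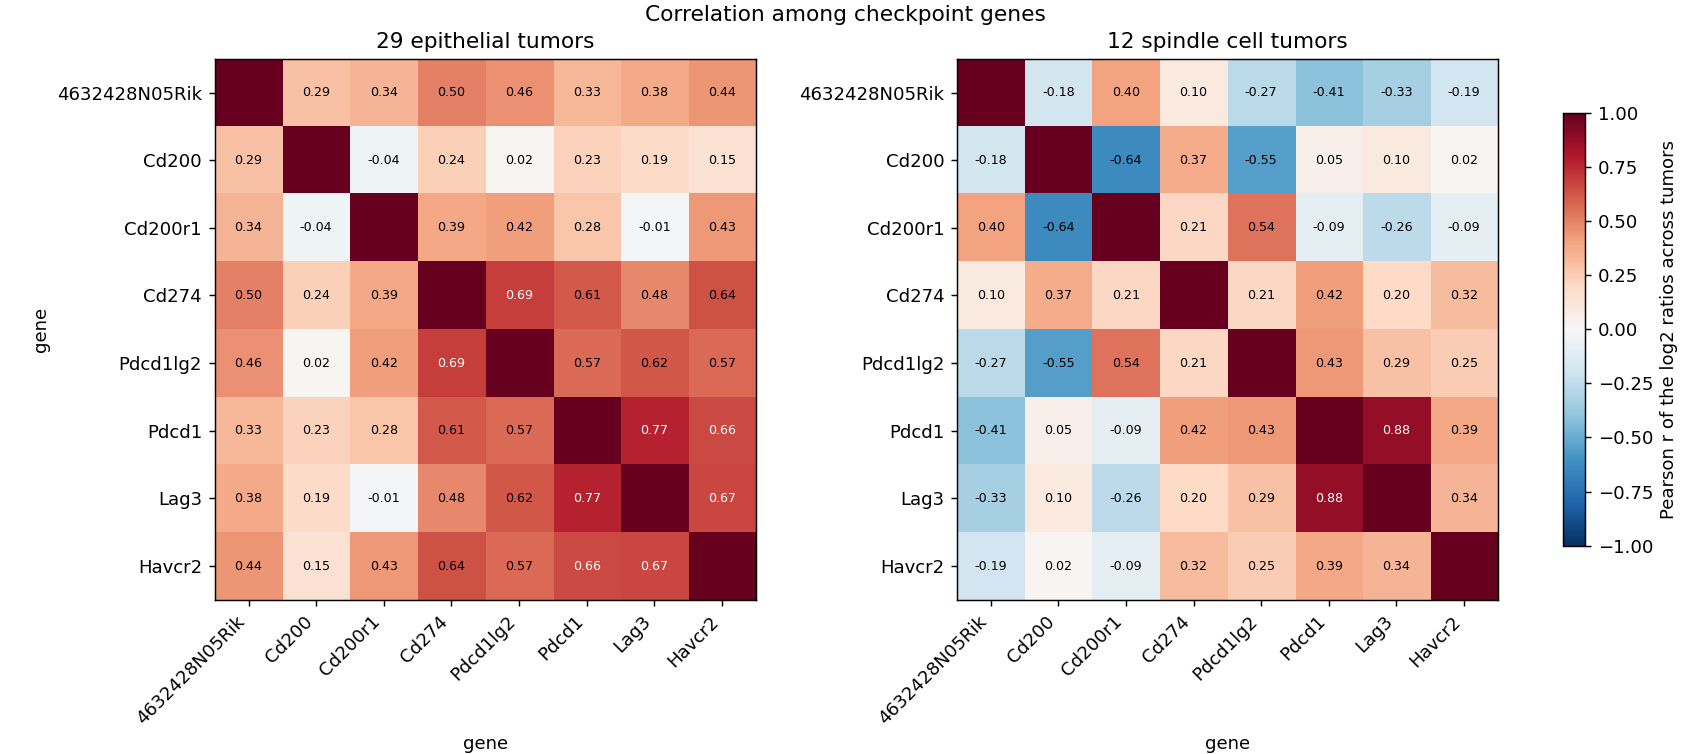
Pearson r between the log2 ratios of 8 genes (both axes) across 29 epithelial tumors (left) and 12 spindle cell tumors (right), with colour from -1 to 1. Cd274, Pdcd1lg2, Pdcd1, Lag3 and Havcr2 form a block of r between 0.48 and 0.77 in epithelial tumors, in which Cd200 has no part, and Pdcd1 with Lag3 reach 0.88 in spindle cell tumors.

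Set against the mean of marker and pathway lists in epithelial tumors, the genes divided. Cd274 had r = 0.71 with the 10 interferon-gamma axis genes (rho = 0.70, n = 29, 0.79 without the 2 farthest), Lag3 0.62 and Pdcd1 0.61, while 4632428N05Rik had 0.13, Cd200 0.10 and Cd200r1 0.05. In the first scan session alone Cd274 had 0.82, 4632428N05Rik 0.34, Cd200r1 0.29 and Cd200 0.09. With the macrophage list Cd274 had 0.61, Cd200r1 0.56, 4632428N05Rik 0.54 and Havcr2 0.49, but Cd200 0.01. Without the 2 tumors farthest from the list's median, r was 0.31 for Cd200r1 and 0.38 for 4632428N05Rik, so those relations rest in part on these tumors. The T cell list had r of 0.47 with Pdcd1lg2, 0.43 with Lag3 and 0.41 with Pdcd1 but -0.02 with Havcr2. In spindle cell tumors the interferon-gamma axis again had r = 0.75 with Cd274, and the macrophage list 0.67 with 4632428N05Rik and -0.56 with Cd200. Without the 2 farthest of these 12 tumors they were 0.49, 0.40 and -0.73.

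By Pearson r across epithelial tumors, among 16877 genes with a known symbol, the following were among the 3 most like each member. Nearest to 4632428N05Rik were Arrb2 (0.784), Hcls1 (0.751) and Was (0.740), and near to Cd200 were Clcf1 (0.767) and Rpl13 (0.756). Cd200r1 was nearest to Tbxas1 (0.787), Slc7a8 (0.766) and Ubash3b (0.742). Cd274 was nearest to Slc15a3 (0.863), Socs1 (0.842) and Cfb (0.839), and Pdcd1lg2 to P2ry14 (0.856), Cysltr2 (0.777) and Trafd1 (0.752). For Pdcd1 they were Zc3h12d (0.846), Pik3r5 (0.795) and the member Lag3 (0.765), and for Lag3 they included Tlr12 (0.83) and Ppfia4 (0.80). Near to Havcr2 were 1810011H11Rik (0.880) and Ch25h (0.862). In the 12 spindle cell tumors these r ran lower for most, for example 0.263 for Slc15a3 with Cd274, 0.818 for Ch25h with Havcr2 and -0.557 for Clcf1 with Cd200. The genes were picked for their high r in the epithelial tumors, so lower r in other tumors can follow from that choice alone. A difference between tumor types in these r was not tested.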

How the data were processed

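RNA of 41 tumors was hybridised with Universal Mouse Reference RNA on 2-color Agilent arrays with 43020 gene spots (39429 probes). The authors deposited the scanner intensity of each spot, background-subtracted and dye-normalized by Feature Extraction (per the file headers 10.5.1.1 or 11.0.1.1, per the submitters' processing notes 8.5.1.1), and a matrix of Lowess-normalized, filtered log2 ratios, which the authors deposited for the same arrays and which served as an alternative. The ratio of processed intensities, Cy5 over Cy3, was taken as log2 per spot, outlier spots (1.48%) were left missing, and spots of a probe were averaged. By array, 22% of spots were outliers on 60L and 8.04% on 122Rb. The array of 60L also gave the lowest epithelial ratios of 4632428N05Rik (0.06) and Cd200r1 (-0.62). Probes whose signal exceeded 10 in each channel for 80% or more of the arrays entered the tests (27307 probes), and the probe of highest mean signal stood for a gene.

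Differences were tested with limma 3.58.1 in R 4.3.3 over all 20913 genes (lmFit, eBayes, Benjamini-Hochberg), in place of the SAM method of the study, at its thresholds of 0.05 for tumor types and 0.10 otherwise. The fit was also run on simulated independent values with large shifts, for tumor type and for onset in epithelial tumors only. Slide and session effects were not simulated. Named genes were the 10 members, genes of related lists that passed or carried a list's largest difference, the 3 genes of highest r to each member, and Trp53; Ddx3y, Eif2s3y and other list genes printed were chosen after their values were seen. Members and lists were chosen with earlier results of these data known. The lists were: other inhibitory receptors, ligands, costimulatory receptors, enzymes, interferon-gamma axis, and markers of leukocytes, T, regulatory T, NK, B and dendritic cells, macrophages, endothelium, epithelium and mesenchyme. The number of arrays limits the precision. Labels of the scanner files were used throughout. Some genes that the rule would name are not reported here.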

Additional observations from a re-analysis of the deposited data

Results flagged for a closer look

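Of 47 sets of 4 tumors of 1 histology, regimen and onset in which a gene's values were checked for a tumor far from the other tumors, 3 held one, and chance gives about 1 in 20. Cd274 read 2.04 in the early LFD epithelial tumor 31R, against 3.04 to 3.12 in the other 3. Ctla4 read -0.86 in the late LFD epithelial tumor 19R, against 0.40 to 0.48 in the rest of its group, and there the tumor channel was not well above background. Ido1 read 3.71 in the late HFD epithelial tumor 57R, whose label is disputed, against 0.32 to 0.77 in the rest of its group, which were not well above background. No member's early and late difference, or pubertal difference, passed as different between tumor types or regimens.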

How the results depend on the processing

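The comparisons were refitted with normexp and loess, median centring, no filter or another filter, the mean over probes, outlier spots kept and the authors' matrix. Slide as a block, 1 tumor per shared label number, other thresholds and covariates, leaving out doubted arrays, and the matrix labels were used too. The doubted arrays were the disputed files, those of weak channel contrast (42L4B, 60L and M86R) and spindle cell arrays of compressed ratios (M32L, M76R and M86R). In 13 of 14 comparisons no member passed, and none passed in 239 refits of them. For spindle cell against epithelial tumors 1 member passed in every refit, 4632428N05Rik in all but the one from the tumor channel alone, where Pdcd1 passed in its place. Of 2020 refitted member values 1 lost its call and 1 gained one, both from the tumor channel alone, and 81 changed sign without passing in either fit. Counts over all genes moved more, from 4218 to between 2348 and 7892 for tumor types, from 30 to between 0 and over 3 times as many for onset in epithelial tumors, from 3 to between 0 and 13 for onset in all tumors, from 0 to at most 268 for pubertal HFD in epithelial and from 2 to at most 8 in all tumors, from 99 to between 0 and 218 for regimens, from 262 to between 6 and 794 for HFD-LFD, from 0 to at most 7 for HFD and 2 for LFD-HFD against LFD, from 0 to at most 1 for regimens of spindle cell tumors or 12 without M84R (early, LFD-HFD), from 1 to between 0 and 5 for onset by tumor type, from 93 to between 16 and 2364 for pubertal HFD by tumor type and from 1 to between 0 and 1665 for onset by regimen; the causes were not tested. Leaving out each spindle cell tumor in turn, or each epithelial tumor for onset by regimen, gave between 0 and 0 members called. No paired analysis was possible because no comparison had more than 1 pair of tumors of the same label number across its groups, and replicate numbers were given in accession order. With 1 tumor per shared number regimens had 10 calls instead of 99 and HFD-LFD against LFD 89 instead of 262. The tumor channel alone, the other probe, the first scan session alone and the Ptprc covariate were chosen after seeing the data. Dim signal limits Pdcd1lg2, Ctla4 and Ido1.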
